A study of Mus musculus with 6 samples.

Results

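Barcodes with the receptors of type 1 conventional dendritic cells (cDC1) were picked from the scRNA-seq data of CT26 tumors. They were selected on measured counts: at least 2 transcripts of Xcr1 and Clec9a together, fewer than 2 of Siglech, none of Ccr7 and none of the lymphocyte genes Cd3e, Cd3d, Ncr1 and Cd79a. The rule was met by 111 of 9235 barcodes, which is 1.2% (exact Clopper-Pearson 95% interval 0.990 to 1.45%). Of these, 62 also carried at least 2 of 6 other genes of cDC1. The remaining 49 did not, and 46 of them held at least 500 CPM of the macrophage genes C1qa, C1qb and C1qc, so that the data went against the label there.

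The tumors were grown subcutaneously in BALB/c mice from 500000 cells of CT26, a mouse colon carcinoma line. They received 3 intratumoral injections, on alternate days, of exosomes loaded with an antisense oligonucleotide. In 3 tumors this was exoASO-STAT6, directed at Stat6, and in 3 it was exoASO-Scramble, a control, and all tumors were taken 24 h after the last dose. CD45+ cells, the leukocytes, were enriched by positive selection, and their RNA was counted in droplets, where each captured transcript counts once by its unique molecular identifier (UMI).

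All tumors share a single matrix of raw UMI counts. The barcodes end in numbers from 3 to 8, here called libraries 3 to 8, and no label pairs these numbers with tumors. The treatment of each library is therefore unknown, exoASO-STAT6 was not compared with exoASO-Scramble, and all barcodes count as 1 pooled sample, without p-values. Levels are UMIs of a gene per 1000000 UMIs of the barcodes summed (CPM), with exact Poisson 95% intervals where given, and the 6 libraries show the spread. The libraries held 11492757 to 33902084 UMIs, with 7270 to 16125 UMIs in the median barcode. In summed counts, fewer cells with a gene and fewer transcripts per cell cannot be told apart.

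Conventional dendritic cells take up dying cells and present their antigens to T cells. The cDC1 lineage depends on the transcription factors Irf8 and Batf3, grows with the cytokine FLT3L through its receptor Flt3, and is known for cross-presentation, the display of engulfed antigen on MHC class I to CD8 T cells. Xcr1 is the receptor of the chemokine XCL1, made by NK and CD8 T cells, and Clec9a is a lectin that binds actin filaments exposed by dead cells. In tumors, cDC1 are known as carriers of tumor antigen and as a source of IL-12 and of CXCR3 ligands. The type 2 lineage (cDC2) leans on Irf4 and mostly primes CD4 T cells, plasmacytoid dendritic cells (pDCs) make type I interferon, and mature dendritic cells carry Ccr7, the receptor that guides them to lymph nodes.

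The promoters of the genes that chose the barcodes, and of a pair of the genes that divided them below, are shown for comparison (RefSeq, GRCm38.p6, 250 bases before to 50 after the annotated start, in the direction of transcription). Capitals mark matches, on either strand, to an IRF motif (GAAA, any 2 bases, GAAA) or an ETS motif (GAGGAAGT). An AP-1 motif (TGANTCA) was also searched. Of all 32851 mouse promoters of this length, 3.44% held the IRF letters, 3.20% the ETS letters and 7.81% the AP-1 letters. The windows lie at chr9:123861980-123862279 on the minus strand for Xcr1, at chr6:129408612-129408911 on the plus strand for Clec9a, at chr14:50357664-50357963 on the plus strand for Tlr11 and at chr16:45224087-45224386 on the plus strand for Btla.
Xcr1: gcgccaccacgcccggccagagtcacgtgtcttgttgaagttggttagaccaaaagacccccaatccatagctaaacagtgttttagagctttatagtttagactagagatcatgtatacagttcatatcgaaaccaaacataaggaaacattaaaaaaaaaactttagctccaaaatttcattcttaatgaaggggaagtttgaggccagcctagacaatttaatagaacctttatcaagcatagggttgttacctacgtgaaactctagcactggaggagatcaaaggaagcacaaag
Clec9a: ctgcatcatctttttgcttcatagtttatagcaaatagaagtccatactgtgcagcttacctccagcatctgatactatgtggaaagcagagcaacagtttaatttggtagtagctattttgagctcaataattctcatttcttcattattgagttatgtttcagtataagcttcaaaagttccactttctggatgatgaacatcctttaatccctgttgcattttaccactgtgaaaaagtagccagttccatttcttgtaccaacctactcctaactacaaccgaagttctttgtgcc
Tlr11: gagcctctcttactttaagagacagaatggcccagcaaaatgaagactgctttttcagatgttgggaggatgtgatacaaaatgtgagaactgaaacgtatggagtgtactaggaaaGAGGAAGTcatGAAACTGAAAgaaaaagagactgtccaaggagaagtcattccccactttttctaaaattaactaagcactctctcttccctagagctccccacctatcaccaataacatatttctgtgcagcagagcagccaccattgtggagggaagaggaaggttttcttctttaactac
Btla: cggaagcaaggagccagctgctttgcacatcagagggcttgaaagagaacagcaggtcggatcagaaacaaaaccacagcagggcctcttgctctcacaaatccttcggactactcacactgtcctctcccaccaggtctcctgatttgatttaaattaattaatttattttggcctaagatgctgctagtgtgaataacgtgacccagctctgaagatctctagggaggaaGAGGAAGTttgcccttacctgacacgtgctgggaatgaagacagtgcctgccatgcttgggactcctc
The Tlr11 window held 1 IRF and 1 ETS match and the Btla window 1 ETS match, while the Xcr1 and Clec9a windows held no match to any of the 3 motifs. Of the other genes used for the division, Gcsam and Snx22 had windows in the table, not printed here, and these held no match either. A match describes letters in a window and not a bound site. Of 30 genes looked up, 23 had a promoter in the table.

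The rule left out many barcodes with cDC1 receptors. Of 185 barcodes with at least 2 UMIs of Xcr1 and Clec9a together, 17 were set aside for Siglech, 27 for Ccr7 and 55 for a lymphocyte gene, with overlap, which left 111. The members numbered 8, 20, 29, 20, 10 and 24 in libraries 3 to 8, or 0.923, 1.23, 1.71, 1.51, 0.585 and 1.19% of each library. Libraries 5 and 6 were the richest and library 7 the poorest. They were deep, with a median of 23519 UMIs per barcode against 11991 in the 40 barcodes of the cDC2 rule (Flt3 present, none of Xcr1, Clec9a, Siglech and Ccr7, and at least 1 UMI of Cd209a, Zbtb46 or Clec10a). Across libraries, 16 barcode sequences occurred in a pair of libraries, and 1 member had such a sequence.

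To check the label without the genes of the rule, 6 other cDC1 genes were counted in each barcode. They were Itgae (the integrin CD103), Btla (an inhibitory receptor), Tlr11 (an endosomal receptor for microbial profilin), Gcsam, the septin Sept3 and the sorting nexin Snx22. These 6 were taken from a longer cDC1 list, after values were seen, because each was at or below 1 CPM in C1q macrophages, so the split they make is a description. Among the 111 members, 44 had none of the 6 genes, 5 had 1, and 6, 12, 16, 23 and 5 had 2, 3, 4, 5 and 6 of them. At least 2 were found in 62 members, or 55.9% (46.1 to 65.3%). The same held for 11 of 40 cDC2 barcodes (27.5%), 8 of 77 mature Ccr7 barcodes (10.4%), 2 of 117 pDC barcodes (1.71%) and 8 of 3084 C1q macrophages (0.259%), a share that is low by the choice of the 6 genes. Median depths were 23519 UMIs in the members, 11991 in cDC2 and 13977 in the macrophages. With barcodes thinned to 2000 UMIs the shares were 23.6% of members, 5.0% of cDC2, 1.33% of mature and 0% of pDC and macrophage barcodes.

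The members just inside the threshold differed from those far inside it. Of the 30 members with exactly 2 UMIs of Xcr1 and Clec9a, 5 (16.7%) had at least 2 of the 6 genes, against 7 of 142 barcodes with 1 UMI (4.93%) just outside it. With 3 UMIs the share was 35.3%, with 4 to 5 UMIs 52.6%, with 6 to 9 UMIs 81.2% and with 10 or more 96.6% (28 of 29 barcodes). Flt3, a receptor that the rule did not use for cDC1, was detected in 6.67% of members with 2 UMIs and in 86.2% of those with 10 or more.

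**Figure D1:**
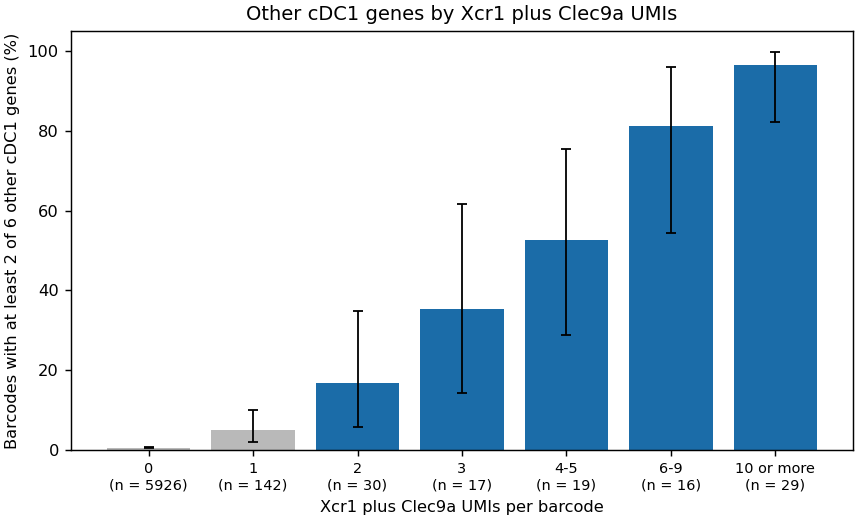
Share of barcodes with at least 2 of 6 other cDC1 genes (y axis, percent) by the UMIs of Xcr1 and Clec9a together (x axis), among barcodes that meet the other conditions of the rule. Bars are shares and lines are exact Clopper-Pearson 95% intervals for counting error. Grey bars lie outside the rule, and the share runs from 0.489% at 0 UMIs to 96.6% at 10 or more.

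Having both receptors marked the same divide. In 62 members both Xcr1 and Clec9a were detected, and 54 of these (87.1%) had at least 2 of the 6 genes. In 38 members Xcr1 alone was detected and 7 (18.4%) had at least 2, and in 11 members Clec9a alone was detected and 1 (9.09%) did. The median level of C1qa, C1qb and C1qc together, complement genes of macrophages, was 430 CPM in barcodes with both receptors, 9238 CPM with Xcr1 alone and 11136 CPM with Clec9a alone. Irf8 stood at 1512, 654 and 664 CPM in these 3 groups, and Wdfy4, a gene required for cross-presentation, at 489, 84.8 and 38.5 CPM.

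The 62 members with at least 2 of the 6 genes are called cDC1-gene barcodes, and the other 49 the remaining barcodes. The cDC1-gene barcodes were divided again at 500 CPM of C1q, a line also drawn after values were seen, into 32 with low and 30 with high C1q. Of all members, 10 lay between 250 and 1000 CPM. C1q had a median of 71.7 CPM in the low set, where 12 barcodes had none, 3733 CPM in the high set, 9419 CPM in the remaining barcodes and 7866 CPM in the C1q macrophages. The 13 macrophage markers, among them Lyz2, Apoe and Csf1r, summed to 1682, 14176, 19170 and 23012 CPM in these sets, and none of the 13 was at 0 UMIs in any of them. The median depth was 16440.5 UMIs in the low set, 33389 in the high set, 22604 in the remaining barcodes and 13977 in macrophages. No caller of doublets was run, and the part of barcodes with the RNA of more than 1 cell, or of free RNA, in the high set was not tested.

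**Figure D2:**
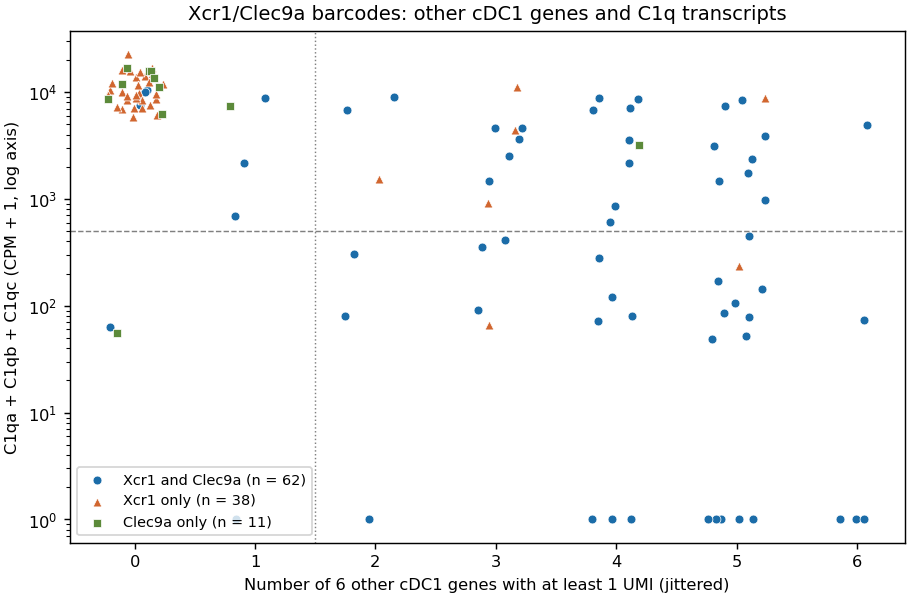
Each of the 111 members by the number of 6 other cDC1 genes with at least 1 UMI (x axis, jittered) and by the summed level of C1qa, C1qb and C1qc (y axis, CPM + 1 on a log axis). Colours give the receptors detected. The dashed line is 500 CPM and the dotted line divides the 62 cDC1-gene barcodes, on the right, from the 49 remaining ones, which crowd at 0 genes and high C1q.

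The cDC1-gene barcodes made up 0.692, 0.617, 1.36, 0.602, 0.351 and 0.446% of libraries 3 to 8 (6, 10, 23, 8, 6 and 9 barcodes). Library 5 was thus apart from the others. The remaining barcodes numbered 2, 10, 6, 12, 4 and 15.

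The cDC1-gene barcodes carried the transcription factors of the lineage. Irf8, its master regulator, stood at 1572 CPM (1509 to 1637), with 1563, 1391, 1861, 1432, 1422 and 1506 CPM in libraries 3 to 8. The C1q macrophages held 368 to 473 CPM and the cDC2 barcodes 280 to 937 CPM, so that neither overlapped with the cDC1-gene barcodes in any library. Irf8 was not particular to them among dendritic cells, since pDCs held 1750 CPM and mature dendritic cells 1306 CPM. Irf8 in the remaining barcodes was 426 to 639 CPM, with a ratio to macrophages of 1.24. Id2, a partner factor of the lineage, was 1016 CPM against 622 CPM in macrophages and was higher in 6 of 6 libraries. Batf3 was 80.9 CPM in the cDC1-gene barcodes and 29.1 CPM in macrophages, but 80.5 CPM in the remaining barcodes too. Its level thus did not differ between the members (interval of the ratio 0.758 to 1.33). With barcodes thinned to 2000 UMIs, Batf3 was detected in 30.7% of mature (20.5 to 42.4%) and 14.5% of cDC1-gene barcodes (6.86 to 25.8%).

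Of the transcription factors of dendritic cells on the list, 4 of 19 were at least 2-fold higher in the members than in macrophages and 0 lower, beside 3.03% and 1.57% of all genes. Against cDC2, 1 of 22 was higher and 3 lower, beside 5.05% and 4.44%. The cDC2 rule could select barcodes by Zbtb46, so the difference of this factor from cDC2 was in part fixed by the choice. Zbtb46 was 28.1 CPM in the cDC1-gene barcodes and 0.355 CPM in macrophages, Zfp366 (DC-SCRIPT) was 31.4 against 0.375 CPM, and Mycl was 31.4 against 0.271 CPM. The corepressor Cbfa2t3 was 200 CPM against 5.11 CPM. In mature dendritic cells Mycl was 1.73 CPM and Cbfa2t3 322 CPM. Irf4, the cDC2 factor, was 6.69 CPM against 34.9 CPM in cDC2, and its 10 UMIs lay in 3 barcodes of library 4. In all members the log2 difference of Irf4 from cDC2 was -2.81, which became -5.94 without library 4 and -1.78 without library 5. Tcf4, the pDC factor, was 85.6 CPM against 1171 CPM in pDCs.

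Cst3 (cystatin C, an inhibitor of lysosomal proteases), which is outside the cDC1 core list used below, was among the highest genes described here. It reached 15833, 14649, 10806, 10064, 14947 and 8304 CPM in libraries 3 to 8, and no library of cDC2 (1106 to 6378 CPM), of the remaining barcodes (675 to 2040 CPM) or of macrophages (1116 to 1671 CPM) overlapped with them. Cst3 was not particular to them among dendritic cells, since its level in mature dendritic cells, given below, lay within their range. Naaa, a lysosomal amidase, was 1285, 982, 1705, 1233, 873 and 1363 CPM, against 176 to 274 CPM in macrophages and 0 to 453 CPM in cDC2. Wdfy4 was 460, 390, 546, 503, 437 and 588 CPM, against 30.0 to 45.5 CPM in macrophages and 11.0 to 193 CPM in cDC2. For these 3 genes the cDC1-gene barcodes exceeded both other sets in every library.

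**Figure D3:**
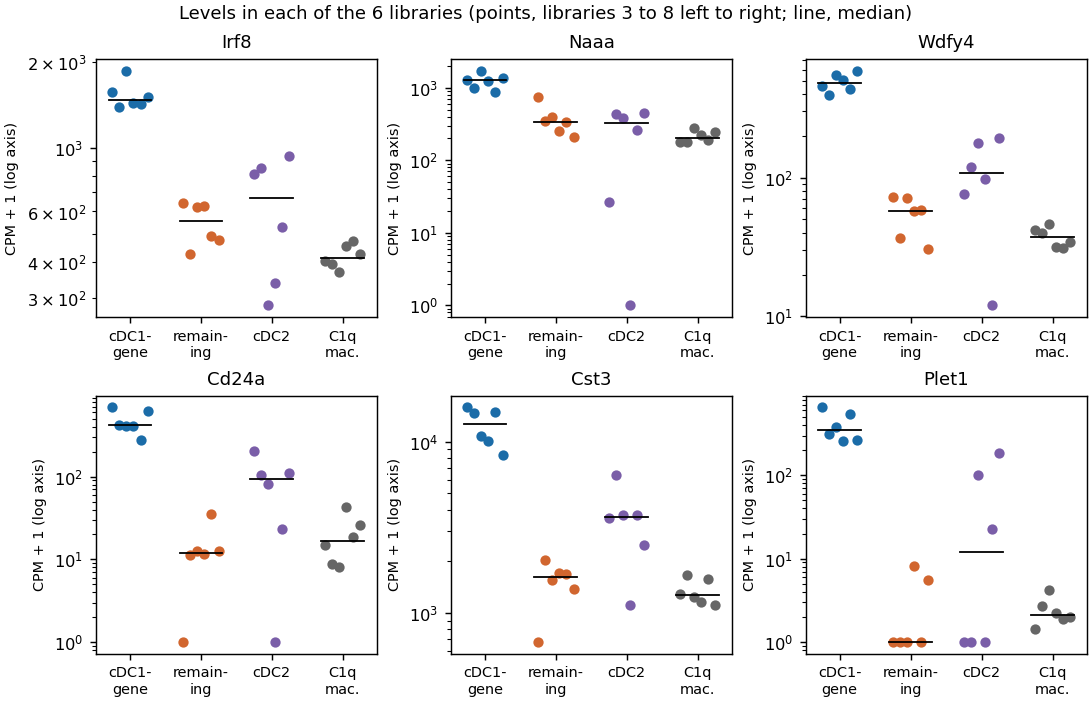
Levels of 6 genes (y axis, CPM + 1 on a log axis) in each of 6 libraries for cDC1-gene barcodes, remaining barcodes, cDC2 barcodes and C1q macrophages. Points are libraries and the line is their median. Irf8 in the cDC1-gene barcodes lies at 1391 to 1861 CPM, above every point of the other sets.

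Several surface genes also separated the members. Plet1 was 372 CPM in the cDC1-gene barcodes, 3.58 CPM in the remaining ones and 1.40 CPM in macrophages, and Cd24a was 451, 12.5 and 18.7 CPM. Flt3 was 106 CPM, detected in 53 of 62 cDC1-gene barcodes and in 0 of 49 remaining ones, where 0 UMIs allow up to 2.68 CPM at 3 counts over the set. The cDC2 rule demands Flt3, and cDC2 held 118 CPM. Kit, another growth factor receptor, was 81.6 CPM in the cDC1-gene barcodes against 3.58 CPM in the remaining ones. Tlr3, which senses double-stranded RNA, was 107 CPM, with 174, 68.3, 167, 45.3, 39.2 and 120 CPM in libraries 3 to 8, against 14.6 CPM in macrophages and 9.11 CPM in cDC2. Cadm1, often listed as a cDC1 marker, was 177 CPM against 158 CPM in macrophages and 270 CPM in the remaining barcodes, so that it did not tell the cDC1-gene barcodes from these, while cDC2 held 91.1 CPM.

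Since the sets differ in depth, each barcode was also thinned to 2000 UMIs, which left out 0, 1 and 54 shallower barcodes of the cDC1-gene, remaining and macrophage sets. Wdfy4 was then detected in 66.1, 14.6 and 7.10% of them, and in 98.4, 63.3 and 37.3% without thinning. Naaa was detected in 90.3, 41.7 and 33.3% after thinning and in 100, 100 and 78.5% before, and Plet1 in 38.7, 2.08 and 0.231% after and in 69.4, 4.08 and 1.17% before. At equal depth each of the 3 genes was detected most often in the cDC1-gene barcodes. Within the cDC1-gene barcodes, thinned Wdfy4 was found in 90.6% of those with low C1q and in 12 of 30 of those with high C1q.

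Next, the members were set against the other dendritic cells by lists of genes. The lists were drawn up with earlier results of these data known. A gene counted as higher or lower when its summed level differed at least 2-fold, among genes with a mean of at least 10 CPM. Against cDC2, 12 of 18 cDC1 core genes were higher and 0 lower in the 111 members, where 5.05% of all 7627 genes were higher and 4.44% lower. The median log2 difference was 1.27 over the list and -0.01 over all genes. Of 19 cDC2 core genes, 8 were lower and 1 higher. For the cDC1-gene barcodes alone, 17 of 20 core genes were higher than in cDC2 and 0 lower (5.35% and 5.57% of 7571 genes). The 6 genes that chose these barcodes are in the core list, so this count was in part fixed by the choice.

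Genes that were at least 2-fold higher than in cDC2 and higher in each of 6 libraries numbered 188 in the members (2.46%), and genes lower in the same way 41 (0.538%). A library where cDC2 had 0 UMIs counted as higher if the members had any. To be lower, a gene needed cDC2 UMIs in every library, also where few cDC2 barcodes were held. The higher and lower counts are therefore not alike. A gene such as Dpy19l3, with 1 UMI in cDC2, was higher in most libraries against 0 UMIs. With barcodes thinned to 2000 UMIs these counts were 90 and 10. Without library 3 or library 6, which held 2 and 1 cDC2 barcodes, the lower genes numbered 70 and 75. In the cDC1-gene barcodes the counts were 184 (2.43%) and 39 (0.515%). The leading higher genes of the cDC1-gene barcodes were Dpy19l3 (51.5 against 1.52 CPM), Itgae, Ppp1r14a, Hepacam2 (86.9 against 4.55 CPM) and Ly75, the endocytic receptor DEC-205 (27.4 against 1.52 CPM). Itgae was 115 CPM with 0 UMIs in cDC2, which is at least 25.3-fold higher when cDC2 is set at 3 counts. Ly75 was the other way round in all members when barcodes were thinned to 2000 UMIs. Apart from Itgae, the 15 genes with the widest folds rest on 1 to 6 UMIs in the 40 cDC2 barcodes, and the interval for Dpy19l3 was 5.91-fold to 1357-fold. Ppm1k, Plpp1, Sema4f, Birc5, Gcsam, Fam149a, Tlr3, Slc25a38, Cdca3 and Tlr11 completed the 15, of which Itgae, Gcsam and Tlr11 also chose these barcodes. In all 111 members the widest folds included genes of mitosis, namely Birc5 (117 against 6.07 CPM), Prc1, Bub1, Dlgap5, Cdca3, Cenpf, Knstrn, Ccna2, Cenpe and Ncapd3.

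The leading lower genes were Cd7 (0.669 against 127 CPM), Slc44a2, I830077J02Rik, Bcl11a (24.7 against 129 CPM), Arl5c, Stard9, Fgr, Vgll4, Samsn1, Plac8, Slamf9, Il2rg, Vopp1, Slc49a4 and Fosl2. In all members Ppp1r16b, Gramd4, Bhlhe40, Nr4a3, Eepd1, Dennd4a, Smad7 and Flrt3 were also among the 15. Bcl11a and Cd7 are also genes of pDCs, which held 350 and 198 CPM. The cDC2 set was itself mixed: its 8 pDC markers summed to 903 CPM against 431 CPM in the cDC1-gene barcodes, its 7 NK markers to 416 against 42.8 CPM, and its 9 T cell markers to 161 against 16.1 CPM. The rule for the members removed barcodes with lymphocyte genes, and the cDC2 rule did not. The gaps in NK and T cell markers were thus in part fixed by the choice, which may also bear on the lower genes. It had 2, 6, 21, 1, 4 and 6 barcodes in libraries 3 to 8, so a direction in library 6 rests on 1 cDC2 barcode. The part of these cells in the lower genes was not tested.

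**Figure D4:**
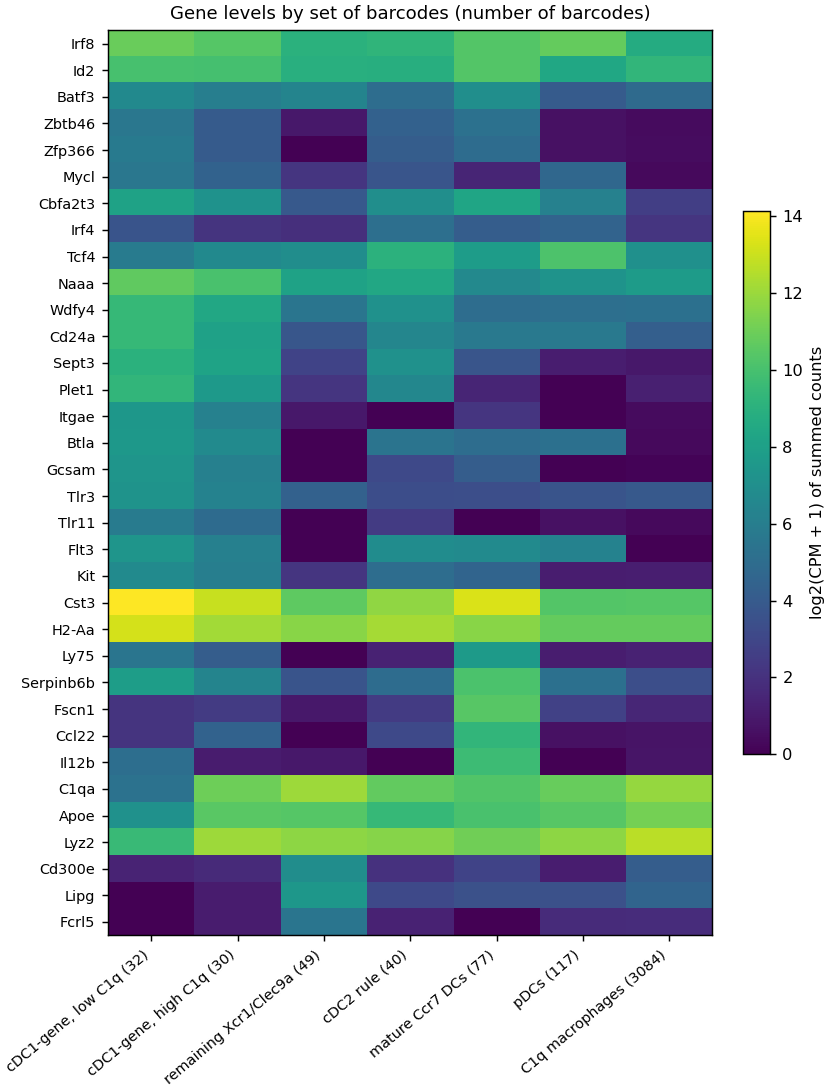
Levels of 34 genes (rows) in 7 sets of barcodes (columns, with the number of barcodes), as log2(CPM + 1) of summed counts by colour. Both cDC1-gene columns hold the genes from Naaa to Kit, and the remaining column, at 0 for Flt3, Btla, Gcsam and Tlr11, holds C1qa, Cd300e, Lipg and Fcrl5.

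MHC class II genes load antigen for CD4 T cells. Of these genes, 6 of 10 were higher in the members than in macrophages (3.03% of 7568 genes were higher and 1.57% lower), and 0 of 12 were 2-fold apart from cDC2. H2-Aa in the cDC1-gene barcodes was 8511, 6026, 5918, 7162, 5839 and 8076 CPM in libraries 3 to 8, above each library of macrophages (1396 to 2619 CPM) and overlapping with cDC2 (2452 to 6899 CPM). H2-Oa and H2-Ob, which modulate peptide loading, were 20.1 and 25.4 CPM against 0.688 and 1.0 CPM in macrophages. Of 19 MHC class I genes, 1 was higher than in cDC2 by this rule (Nlrc5, a transactivator of class I genes, at 40.2 against 18.2 CPM), a share near the 5.05% of all genes, and 0 were apart from macrophages. Psmb9, an immunoproteasome subunit, was 587 CPM in the cDC1-gene barcodes against 282 CPM in cDC2 and 314 CPM in macrophages, and Tap1, the peptide transporter, was 338 against 223 and 253 CPM. The class I list as a whole was not raised in these barcodes. Against cDC2, 1 of its 19 genes was higher and 0 lower, beside 5.35% and 5.57% of all genes, with a median fold of 1.05. Its summed level had a library median of 10928 CPM, against 10987 CPM in cDC2 and 13140 CPM in macrophages.

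Of 18 cross-presentation genes, 2 were higher in the members than in cDC2 and 0 lower, beside 5.05% and 4.44% of all genes. They were Wdfy4 and the small GTPase Rab32 (94.5 against 42.5 CPM). In the cDC1-gene barcodes alone 2 of the 18 were higher and 1 lower, beside 5.35% and 5.57% of all genes. The median fold was close to 1, so the list as a whole was not raised there. In the cDC1-gene barcodes Rab43, a small GTPase with a known part in cross-presentation, was 266 CPM against 167 CPM in cDC2 and 91.4 CPM in macrophages, higher in 6 of 6 libraries in both comparisons. The NADPH oxidase gene Cybb went the other way, with 411 CPM against 663 and 904 CPM. Outside this list, 2 cDC1 core genes were higher in 6 of 6 libraries. They were the endosomal GTPase Rab7b (278 against 75.9 CPM in cDC2) and the lysosomal thioesterase Ppt1 (554 against 135 CPM).

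Among receptors for dead cells, Havcr2 (TIM-3) was 110 CPM in the cDC1-gene barcodes and 55.5 CPM in macrophages, higher in 6 of 6 libraries. Timd4, a receptor for phosphatidylserine, was high in library 3 and low in library 6, at 269, 159, 91.4, 18.1, 61.6 and 57.9 CPM in libraries 3 to 8, against 13.4 CPM in macrophages and 158 CPM in cDC2. Mertk was 22.7 CPM against 43.3 CPM in macrophages and Axl 25.4 against 48.0 CPM.

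Of 11 cytokine genes, 2 were higher in the members than in cDC2 and 1 lower, beside 5.05% and 4.44% of all genes. In the cDC1-gene barcodes 1 of 8 was higher and 1 lower, beside 5.35% and 5.57%. Il12b, the subunit IL-12 p40, had 21 UMIs in 3 of 62 cDC1-gene barcodes, at 90.7 CPM in library 6 and 5.60 CPM in library 7 and at 0 UMIs in the other libraries, while mature Ccr7 dendritic cells held 836 CPM, macrophages 0.751 CPM, and cDC2 and pDCs 0 UMIs. Il12a had 0 UMIs, which at 3 counts over the set allows up to 2.01 CPM. Cxcl9, a ligand of CXCR3, was 322 CPM in the cDC1-gene barcodes, 1336 CPM in the remaining ones and 782 CPM in macrophages, lower than in macrophages in 6 of 6 libraries. Within the cDC1-gene barcodes Cxcl9 was 136 CPM with low C1q and 447 CPM with high C1q. Ccl5 was 61.5 CPM against 4241 CPM in mature dendritic cells. The receptor Cxcr3 itself was 14.7 CPM against 1.17 CPM in macrophages.

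Genes of maturation were low, and the rule had already removed barcodes with Ccr7. Of 20 maturation genes, 18 were lower in the members than in mature dendritic cells and 0 higher, with a median log2 difference of -3.90 (8.27% of 7638 genes were lower and 9.56% higher). In the cDC1-gene barcodes Fscn1, which also chose the mature set, was 4.01 against 1402 CPM. There Ccl22 was 14.0 against 635 CPM and Il4i1 was 0.669 against 307 CPM. Of 19 costimulation and checkpoint genes, 8 were lower and 3 higher. Cd80 was 28.1 CPM in the cDC1-gene barcodes against 110 CPM, Cd86 was 132 against 185 CPM and Cd40 was 26.1 against 173 CPM. In the mature set Irf8 was 1306 CPM and Cst3 10171 CPM, while Naaa was 99.3 CPM and Wdfy4 32.8 CPM. Of 19 cDC1 core genes, 15 were higher in the members than in mature cells and 1 was lower (Laptm4b, 11.1 against 64.7 CPM). Ly75, which is outside that list, was 27.4 CPM in the cDC1-gene barcodes against 205 CPM in mature cells. Against pDCs, 16 of 20 were higher and 1 lower (4.22% of 7900 genes were higher and 7.94% lower), the lower one being Cd8a at 6.89 against 16.1 CPM.

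The pathway aimed at by the oligonucleotide was measured at low depth. Stat6 had 72 UMIs in the cDC1-gene barcodes, or 48.2 CPM (37.7 to 60.6), against 48.6 CPM in cDC2 and 56.4 CPM in macrophages. It was 34.7, 55.3, 69.1, 45.3, 28.0 and 22.3 CPM in libraries 3 to 8, below macrophages of the same library in 6 of 6, with a ratio of 0.854 (0.666 to 1.08). Treatment and library cannot be told apart in these values. Il4ra, a chain of the IL-4 and IL-13 receptors, was 69.5, 78.0, 84.7, 168, 39.2 and 49.0 CPM, lower than in macrophages (116 CPM) in 6 of 6 libraries. Il13ra1 was 23.4 CPM, and Il4 and Il13 had 0 UMIs in the cDC1-gene barcodes. In the cDC1-gene barcodes 0 of 8 pathway genes were higher than in cDC2 and 3 lower, beside 5.35% and 5.57% of all genes. The lower ones included Cish, a cytokine-induced inhibitor of signalling, at 16.1 against 85.0 CPM. The pathway list summed to a library median of 357 CPM with low C1q, 468 CPM with high C1q and 584 CPM in macrophages. Every low-C1q library lay below every macrophage library, while the high-C1q libraries overlapped with them. The part of macrophage transcripts in the Stat6 level was not tested.

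Interferon-induced genes set library 6 apart. The 20 genes of the list summed to 3491, 2915, 1794, 7443, 2301 and 2343 CPM in the cDC1-gene barcodes of libraries 3 to 8. C1q macrophages were also highest in library 6, with 3360, 4208, 2826, 6992, 4465 and 3933 CPM, while the remaining barcodes had 1704, 4694, 5957, 6346, 4839 and 3930 CPM. Isg15 in the cDC1-gene barcodes was 494 CPM in library 6 and 67.2 to 163 CPM in the others. Cd274 (PD-L1), an interferon-induced checkpoint ligand, was 174, 150, 51.3, 499, 185 and 75.7 CPM. The low-C1q set alone gave 6853 CPM in library 6 and 1543 to 4063 CPM in the others.

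**Figure D5:**
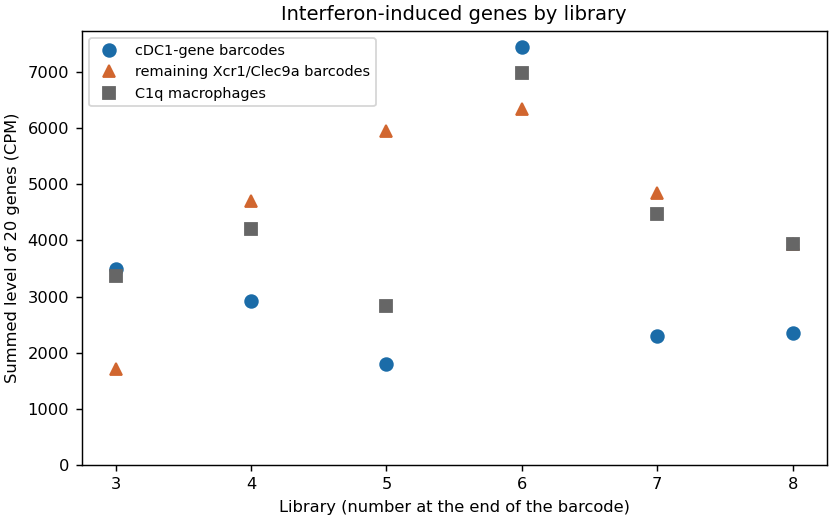
Summed level of 20 interferon-induced genes (y axis, CPM) in each library (x axis) for cDC1-gene barcodes, remaining barcodes and C1q macrophages. Each point is 1 library, and library 6 is the highest in all 3 sets.

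The remaining 49 barcodes differed from C1q macrophages too. They held Irf8 at 522 CPM and Wdfy4 at 43.9 CPM, and Flt3 at 0 UMIs. Btla, Gcsam, Snx22 and Tlr11 were also at 0 UMIs, which largely follows from how these barcodes were divided. Against C1q macrophages the highest genes, ranked after values were seen, were Fcrl5 (44.7 against 2.42 CPM), the lectin Clec4b1 (177 against 20.8 CPM), endothelial lipase Lipg (176 against 22.5 CPM) and Cd300e, an activating receptor of monocytes (121 against 16.9 CPM). Among those that followed were Dnase1l3, Siglece, the chemokine Cxcl13 (119 against 26.4 CPM), Itgax and lipoprotein lipase Lpl (279 against 84.1 CPM). By library these genes were uneven. Fcrl5 was 0 CPM in the remaining barcodes of libraries 3 to 5 and 56.7, 57.2 and 66.4 CPM in libraries 6 to 8, and Lipg was 0 CPM in libraries 3 to 5 and 142, 423 and 275 CPM in libraries 6 to 8. Both were thus higher than in macrophages of the same library in 3 of 6, Clec4b1 in 5 of 6 and Cd300e in 4 of 6. Libraries 3 to 5 held 2, 10 and 6 of these barcodes. Among the lowest were the haemoglobin scavenger receptor Cd163 (1.79 against 40.2 CPM), Areg, Nos2 (4.47 against 57.9 CPM), Pf4 and Hmox1 (169 against 1094 CPM). Cd163, Areg and Nos2 had 2, 4 and 5 UMIs in these barcodes, too few to compare by library, while Pf4 and Hmox1 were lower in 6 of 6 libraries.

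Cd300e was uneven among them. It was detected in 0, 1, 0, 8, 1 and 9 remaining barcodes of libraries 3 to 8, or 19 of 49, and in 2 of 62 cDC1-gene barcodes.

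Transcripts of dividing cells were frequent. Barcodes with at least 2 UMIs of Mki67, a proliferation marker, and Top2a, a topoisomerase of dividing cells, are called dividing here, a line set after values were seen. They were 23 of 62 cDC1-gene barcodes (37.1%, 25.2 to 50.3%) and 25 of 49 remaining barcodes (51.0%, 36.3 to 65.6%), against 12 of 40 cDC2 barcodes (30.0%), 9 of 77 mature (11.7%), 18 of 117 pDC (15.4%) and 798 of 3084 C1q macrophage barcodes (25.9%). Dividing cDC1-gene barcodes numbered 2 of 6, 5 of 10, 12 of 23, 1 of 8, 2 of 6 and 1 of 9 in libraries 3 to 8, most of them in libraries 4 and 5. They were deeper than the rest, at a median of 28419 against 17693 UMIs. After thinning to 2000 UMIs, Mki67 or Top2a was detected in 16.1% of cDC1-gene barcodes, 35.4% of the remaining ones, 12.5% of cDC2, 6.67% of mature, 8.62% of pDC and 17.5% of macrophage barcodes. At 1000 UMIs it was 17.7% of cDC1-gene barcodes and 11.3% of macrophages, so that the order of these sets was not stable. The thinnings were separate random draws, with 10 of 62 cDC1-gene barcodes at 2000 UMIs and 11 of 62 at 1000 UMIs. Before thinning the same shares were 48.4, 59.2, 55.0, 29.9, 25.6 and 42.8%. Dividing barcodes numbered 6 of 32 (18.8%, 7.21 to 36.4%) with low C1q and 17 of 30 (56.7%, 37.4 to 74.5%) with high C1q, and the thinned shares were 9.38 and 23.3%.

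Of 20 cell division genes, 16 were higher in the members than in cDC2 and 0 lower, where 5.05% of all genes were higher and 4.44% lower. Against C1q macrophages 2 of the 20 were higher and 0 lower, beside 3.03% and 1.57% of all genes. In the cDC1-gene barcodes alone 13 were higher than in cDC2 and 0 lower, beside 5.35% and 5.57% of all genes. Between dividing and other cDC1-gene barcodes the widest folds beyond the genes of the definition were Prc1 (97.7 against 1.24 CPM), Hist1h1b (208 against 3.71 CPM), Knl1, Cdca8, Cenpf, Racgap1, Cdc20, Clspn, Cep55 and Kif15. Naaa was 1319 CPM in dividing and 1290 CPM in other barcodes, and Wdfy4 474 and 512 CPM. Irf8 was 1480 and 1651 CPM, with an interval of the ratio from 0.825 to 0.973. Lower in them were Batf3 (59.8 against 98.9 CPM), Itgae (93.3 against 133 CPM), Cd24a (334 against 550 CPM), H2-Aa (5279 against 7790 CPM) and Flt3 (78.7 against 130 CPM). The widest lower folds included the macrophage genes Lyve1 (4.37 against 53.1 CPM), Chil3 (8.75 against 81.6 CPM) and Cd163 (16.0 against 91.4 CPM). C1qa went the other way, at 1904 against 671 CPM, and the part of macrophage transcripts in these differences was not tested.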

How the data were processed

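CD45+ cells of 6 CT26 tumors were profiled with a 3′ droplet kit. The deposited matrix holds raw UMI counts of 20649 genes in 9235 barcodes, which the authors made with Cell Ranger 1.2, Seurat 3.1.5 and R 4.0.1 on mm10, as far as the submitters' processing notes name them. Filters on cells are as the authors left them and none was added, and no doublet caller was run. The study's cell names were not used here. Barcode endings match no tumor label, so the edgeR comparison of treatments was not made.

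The members and the 26 gene lists (325 of 335 listed genes in the matrix) were chosen with earlier results of these data known. Counts were summed per set of barcodes and scaled to CPM with Python 3.11.15, numpy 2.4.6, scipy 1.17.1, pandas 2.3.3 and matplotlib 3.10.9. Genes with a mean of at least 10 CPM (20 for genes named within the members) and a 2-fold difference were called, and a set at 0 was set at 3 counts for folds. Mature dendritic cells had at least 1 UMI of Ccr7 and of Fscn1. The pDCs had at least 2 of Siglech, fewer than 2 of Xcr1 and Clec9a together, and no Ccr7. C1q macrophages had at least 5 of C1qa, C1qb and C1qc with Csf1r or Adgre1 and without Flt3, Xcr1, Clec9a, Ccr7 and Siglech. All of these sets were without the lymphocyte genes of the rule, which the cDC2 rule did not exclude. Named genes are those of the rule, the 15 with the widest folds from cDC2 in each direction that had 1 direction in every library, list members past 2-fold and 2 to 4 others by level, Stat6 with its receptors, and the 10 with the widest folds between dividing and other barcodes. Genes named otherwise were chosen after their values were seen, and some genes that meet these rules are not reported here.

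The members held 1456 to 59124 UMIs each. Intervals and floors cover counting error only. No p-value was computed. Only the 2-fold rule was tested on simulated data, with pooled counts that had no variation between cells or libraries. Alternatives were other UMI minimums, Flt3 demanded, macrophage transcripts left out, equal weights, thinning, other folds and filters, and each library left out in turn; the division of the members and the sets without Mki67 or Top2a were added after seeing the data.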

Additional observations from a re-analysis of the deposited data

Results flagged for a closer look

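Among 23 values examined over the 6 libraries, 5 had 1 library far from the others by Dixon's criterion (critical value 0.625), where chance sets apart about 1 in 20. The cDC1-gene barcodes made up 1.36% of library 5 and 0.351 to 0.692% of the others. Irf8 in these barcodes was 1861 CPM in library 5 and 1391 to 1563 CPM elsewhere. In library 6 the interferon-induced list stood at 7443 CPM against 1794 to 3491 CPM, Cd274 at 499 CPM against 51.3 to 185 CPM and Il4ra at 168 CPM against 39.2 to 84.7 CPM. Library 6 held 8 cDC1-gene barcodes and library 5 held 23. The treatment of these libraries is unknown, and the cause was not tested.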

How the results depend on the processing

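No paired analysis was possible because no barcode could be tied to its tumor, which concerns the treatments only; sets of barcodes were compared within each library. The members' share of 1.2% became 2.74% with 1 UMI of Xcr1 and Clec9a, 0.877% with 3, 0.574% with Flt3 demanded, 0.379% without barcodes with at least 5 of 13 macrophage markers, 0.671% for cDC1-gene barcodes and 0.347% for those with low C1q, and was 1.09 to 1.34% when libraries were dropped singly. At least 2 of 6 cDC1 genes were found in 55.9% of members, which became 23.6% and 6.31% at 2000 and 1000 UMIs, 27.3% and 70.4% with minimums of 1 and 3 UMIs, 100% with Flt3 demanded and 88.6% without macrophage markers, and was 47.6 to 60.9% with each library left out. Genes higher and lower than in cDC2 (385 and 339) became 865 and 1063 without macrophage markers, 843 and 1203 at 2000 UMIs, 962 and 1009 at 1.5-fold, 128 and 124 at 3-fold, 986 and 3226 without a filter, 69 and 76 at 50 CPM, 672 and 962 in cDC1-gene barcodes without Mki67 or Top2a, and 675 and 751 without such barcodes in either set. Lower genes became 620 with equal weights and 1110 in low-C1q barcodes. With each library left out they were 420 to 533 higher and 348 to 436 lower. Genes with 1 direction in every library (188 higher, 41 lower) became 90 and 10 at 2000 UMIs, 293 and 96 at 1.5-fold, 82 and 10 at 3-fold, 44 and 26 at 50 CPM, and 329 and 64 without Mki67 or Top2a in either set. The lower ones became 64 with equal weights, 180 in low-C1q barcodes and 65 in cDC1-gene barcodes without Mki67 or Top2a. With each library left out they were 219 to 265 and 54 to 75. Some settings leave fewer than 6 libraries, and the cause of the other changes was not tested. Core genes at least 2-fold higher than in macrophages, mature dendritic cells and pDCs (16, 15 and 16) were 1, 7 and 2 in the remaining barcodes, which were chosen for lacking 6 genes of that list (3.03, 9.56 and 4.22% of all genes were higher in the members), and 14 to 16, 14 to 16 and 15 to 17 with each library left out. Of 608 log2 folds of 32 named genes, 408 stayed within the 95% counting interval of the value reported, 195 left it, and 5 of at least 1 in size changed sign. Smaller values such as those of Isg15 and H2-Aa also changed sign with 1 library left out (-0.76 to 0.25 and -0.04 to 0.46). Ly75 went to -2.04 at 2000 UMIs, where few of its UMIs were left, and Mki67 and Top2a to -1.65 and -2.25 where barcodes with them were left out, by construction.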

Other observations

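Of the 74 barcodes with at least 2 UMIs of Xcr1 and Clec9a that the rule left out, 35 had at least 2 of the 6 other cDC1 genes. Of these, 15 had Ccr7, 30 had a lymphocyte gene and 4 had Siglech. Outside the rule, 7 barcodes that met its other conditions had at least 3 of the 6 genes with fewer than 2 UMIs of Xcr1 and Clec9a, and 2 of them were in the cDC2 set. Neutrophil markers summed to 786 CPM in the members, 308 CPM in cDC2 and 848 CPM in C1q macrophages. Against cDC2, 2 of 4 of them were higher and 0 lower, beside 5.05% and 4.44% of all genes. S100a9, one of these markers, was detected in 28 of 111 members. It was most abundant, at 282 UMIs, in 1 cDC1-gene barcode of library 8. Next came 216 UMIs in 1 remaining barcode of library 8 and 141 UMIs in 1 remaining barcode of library 6. After these, 1 cDC1-gene barcode of library 3 had 126 UMIs.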
